A study of Mus musculus with 15 samples.

Results

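The genes described here are 42 mouse genes of 3 axon guidance systems: the Eph receptors with their ephrin ligands, the Slit ligands with the Robo receptors and the Srgap effectors, and the netrins with the Dcc, neogenin and Unc5 receptors. They were listed by name, as members of these families. A CpG row of the methylation table was taken as belonging to a gene when it lay inside the gene or within 2 kb of it, by the RefSeq annotation of mouse build GRCm38. This gave 2172 rows of the 455836 CpG rows in the table, and all 42 genes had at least 1 row. Each row is 1 cytosine of a CpG on 1 strand, and 159 of the 2172 rows are the opposite strand of a CpG that another row already covers.

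The assay was reduced representation bisulfite sequencing (RRBS), which reads methylation in CpG-rich restriction fragments, on dissected dentate gyrus, the part of the hippocampus where granule neurons lie. The 15 mice were female C57BL/6JRj, the inbred strain shared by every group, and were 7.5 months old. The 5 standard mice lived in standard cages for 6 months. The 5 enriched mice lived in an enriched environment for 6 months. The 5 withdrawal mice lived in an enriched environment for 3 months and then in standard cages for 3 months. The design asks whether methylation differs with enrichment, and whether a difference is still seen after enrichment is withdrawn. The tissue was not sorted, so a methylation percentage is an average over granule neurons, interneurons, glia and vessel cells, and a change in a gene cannot be told apart from a change in the mix of cells.

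Axon guidance proteins steer growing axons and dendrites toward or away from a target, and in the adult brain they also act at synapses. Ephrins are bound to the cell surface, the A class by a lipid anchor and the B class by a membrane-spanning segment, and they signal through Eph receptor tyrosine kinases on the neighbouring cell. Slits are secreted proteins that repel axons through Robo receptors, which recruit Srgap proteins inside the cell. Netrins are secreted proteins that attract axons through Dcc and repel them through Unc5 receptors. The netrin-G proteins are anchored to the membrane and bind other partners at synapses. The dentate gyrus sends its axons, the mossy fibres, to hippocampal field CA3 and keeps adding new granule neurons in the adult.

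Promoter sequence is the stretch where methylation is most often read as a sign of a silenced gene, so the promoter stretches of 4 members are shown first. They are from RefSeq on build GRCm38.p6, run 5′ to 3′ along the gene's strand up to its outer start, and are in lower case with the CpGs that have at least 1 measured row in capitals. Ntn3 and Ntn4 are netrin ligands and Unc5c is a netrin receptor. Their 300-base promoter windows hold 16, 31 and 24 CpGs, against a median of 21.5 in the members and 7 over all promoters. Robo4, an endothelial Robo receptor, has 1 CpG in its stretch and the only promoter window above 5%.
Ntn3 (chr17:24209388-24209637, minus strand): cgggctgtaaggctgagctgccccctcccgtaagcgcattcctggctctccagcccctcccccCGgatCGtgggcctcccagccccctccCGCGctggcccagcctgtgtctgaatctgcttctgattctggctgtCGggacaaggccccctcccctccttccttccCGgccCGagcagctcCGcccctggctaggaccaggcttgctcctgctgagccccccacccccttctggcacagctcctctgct
Ntn4 (chr10:93640799-93641048, plus strand): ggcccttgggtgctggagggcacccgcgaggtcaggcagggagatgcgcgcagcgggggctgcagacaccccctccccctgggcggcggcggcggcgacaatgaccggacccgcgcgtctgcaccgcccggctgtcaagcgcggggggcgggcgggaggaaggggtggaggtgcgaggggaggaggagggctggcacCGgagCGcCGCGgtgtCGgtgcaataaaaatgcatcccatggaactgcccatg
Unc5c (chr3:141465314-141465563, plus strand): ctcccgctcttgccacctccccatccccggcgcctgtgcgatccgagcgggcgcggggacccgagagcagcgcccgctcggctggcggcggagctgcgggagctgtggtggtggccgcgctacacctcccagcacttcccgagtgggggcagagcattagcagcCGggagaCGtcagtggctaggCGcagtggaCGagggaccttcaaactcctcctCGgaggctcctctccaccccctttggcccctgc
Robo4 (chr9:37401722-37401901, plus strand): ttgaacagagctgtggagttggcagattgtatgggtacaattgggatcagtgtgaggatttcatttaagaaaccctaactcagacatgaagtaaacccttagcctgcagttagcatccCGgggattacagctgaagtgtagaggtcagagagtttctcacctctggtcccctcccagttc

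The promoter table had 42 entries for 37 of the genes. A 300-base window, from 250 bases before the start to 50 after it, held a median of 21.5 CpGs in the members and 7 over all 32851 promoter entries. The motif CCGG, which reads the same on both strands and is the site cut in standard RRBS, was present in 85.7% of member windows and in 52.8% of all. Summed over 17 windows of 16 genes, 105 measured rows lay in the 250 bases before the transcript start of the entry. Where that transcript starts inside the gene, as in Ephb2, Ephb3 and Srgap2, some of these rows lie after the gene's outer start. Of these 105 counted rows 62 were at 0 in every mouse with a value. The Epha7 windows overlap, so 10 rows, 8 of them among those at 0, are counted in each of these windows. The numbers of distinct rows are therefore lower than 105 and 62. In 16 of the 17 windows the mean was under 5%, from 0.325% in Ephb3 to 3.61% in Ephb2. Only 3 of the 105 counted rows had a value in all 15 mice. The capital CpGs of Ntn3 averaged 1.92%, those of Ntn4 0.548% and those of Unc5c 3.29% over the mice with a value. The single measured row of the Robo4 window averaged 32.8% ± 10.5 (SD, n = 3) in the standard mice with a value, 29.2% ± 20.3 (SD, n = 4) in the enriched mice and 48.2% ± 12.99 (SD, n = 3) in the withdrawal mice, and the 3 groups overlapped.

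The rows of these genes were not evenly covered. Each mouse lacked between 3.41% of the 2172 rows (withdrawal mouse 4) and 36.1% (standard mouse 1), and 557 rows (25.6%) had a value in all 15 mice, against 24.97% of all CpG rows. Gene and class levels are means over such complete rows, and a gene needed 3 of them, which left 35 of the 42 genes. The table holds percentages without read counts, so the depth behind each value is unknown and no counting interval can be given.

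The members differed far more from one another than between the groups of mice. Over the 35 genes the mean methylation was 36.8% ± 0.889 (SD, n = 5) in the standard mice, 36.5% ± 1.10 in the enriched mice and 36.7% ± 0.591 in the withdrawal mice. Gene levels over all mice ran from 1.5% in Efna3, a ligand of EphA receptors, to 92.7% in Epha2, an EphA receptor, over 3 of its 41 rows. With all rows that had at least 3 mice per group Efna3 was at 4.41% and Epha2 at 32.96%. The mean of the netrin ligands was 67.3% (Ntn1 and Ntn4), that of Dcc was 65.4% and that of the Robo receptors 63.1%. With at least 3 mice per group these were 28.8% (with Ntn3), 33.3% (Dcc with Neo1) and 55.1%, so their order depended on which rows were counted. The mean of the Srgap effectors was 44.7% (Srgap1 76.7%, Srgap3 12.6%). EphA receptors averaged 35.7%, EphB receptors 35.4% and Unc5 receptors 33.1%. Slit ligands averaged 29.7%, netrin-G ligands 20.2%, ephrin-A ligands 18.5% and ephrin-B ligands 11.7%. With at least 3 mice per group the Srgap effectors were at 30.7%, netrin-G ligands at 31.5% and EphB and Unc5 receptors each at 28.2%. Slit ligands were then at 23.9%, ephrin-A ligands at 23.8% and ephrin-B ligands at 15.6%, so the order of these classes moved too. Within the EphA receptors the complete rows gave levels from 2.26% (Epha10) to 92.7% (Epha2), and with at least 3 mice per group those 2 genes were at 17.04% and 32.96%.

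**Figure D1:**
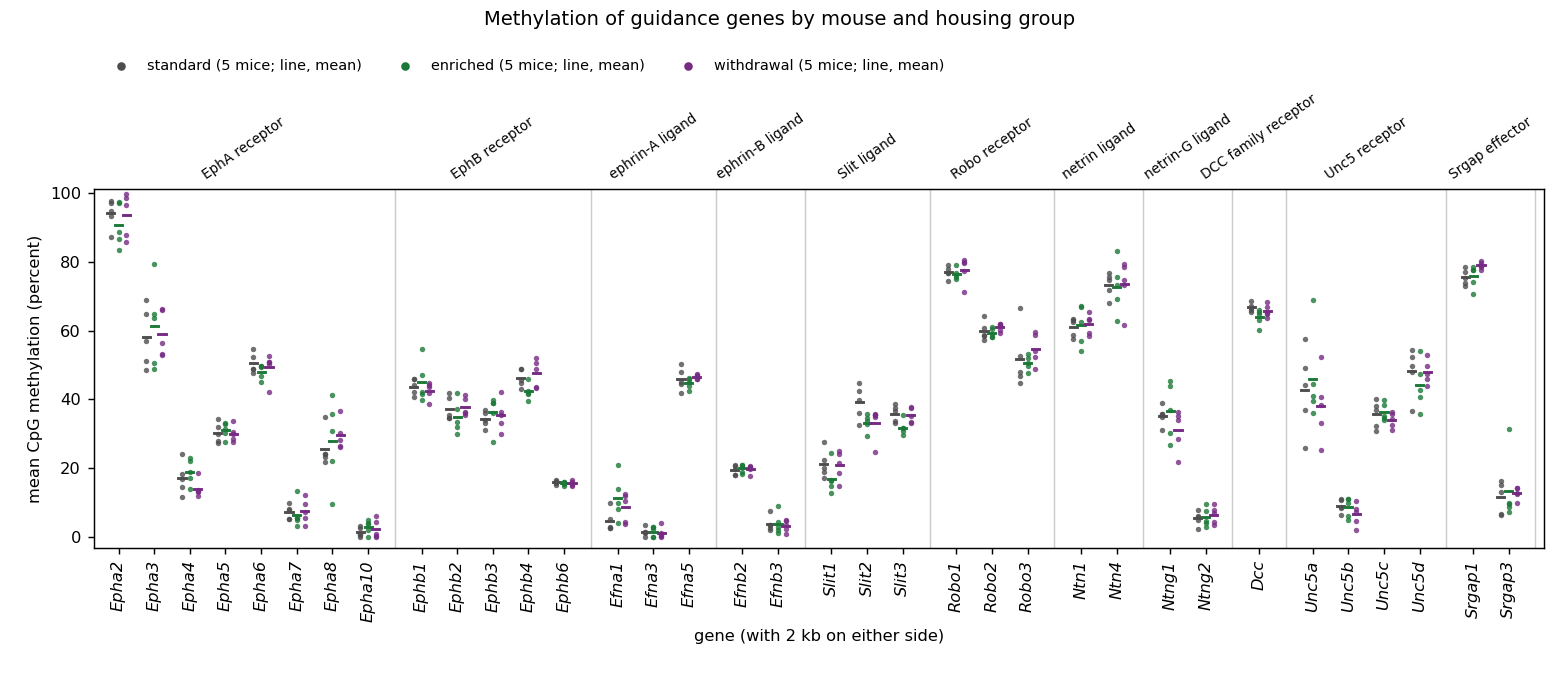
Mean CpG methylation of each of the 35 guidance genes (y axis, percent) in each mouse, by gene class (x axis). Points are mice, short lines are group means of 5 mice, and the spread between genes, from 1.5% (Efna3) to 92.7% (Epha2), is larger than that between groups of 1 gene.

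The methylation of a row went with its place in the gene. In the 37 genes with a known strand, 67.3% of the complete rows were more than 5 kb inside the gene, where the median row was at 63.5%, against 44.3% of rows and 72.6% over all protein-coding genes. Rows within 1 kb of the start had a median of 1.70% in the members and 1.16% over all genes, and rows 1 to 5 kb after the start 2.24% and 4.47%. The members were long, with a median length of 148.7 kb against 24.1 kb for all protein-coding genes with a row, and 54.8% of them were over 100 kb against 14.5%. Robo1, whose rows lie deep in the gene, averaged 77.1%, while Epha10, whose complete rows lie at its start, averaged 2.26%. Levels therefore describe the rows that RRBS covered, and adding rows with fewer mice lowered the mean over genes to 30.8%.

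**Figure D2:**
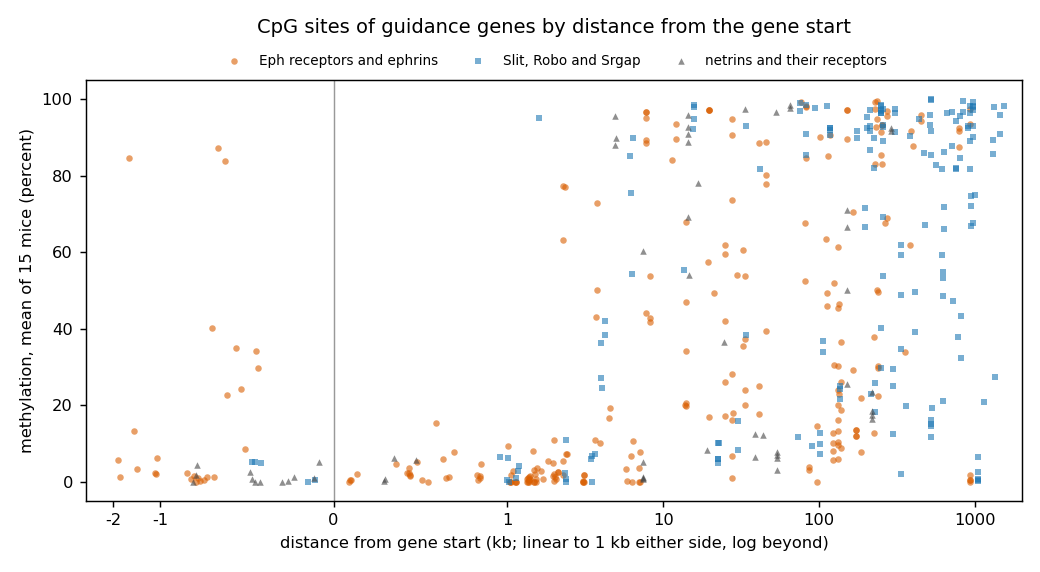
Mean methylation over 15 mice (y axis, percent) of each complete CpG row in the guidance genes with a known strand, by distance from the gene's outer start (x axis, kb). Colours and shapes are the 3 guidance systems, and low values gather near the start (median 1.70% within 1 kb) while rows beyond 5 kb spread over the whole range (median 63.5%).

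Gene starts were at 6.09% or less in 9 of the 10 members with 3 complete rows within 1 kb of the start. Unc5b, a repulsive netrin receptor, had a start value of 0.660%, Efnb2, a transmembrane ephrin, 0.963% and Efna5, a lipid-anchored ephrin, 1.32%. The highest starts were those of Robo3, a Robo receptor that in the embryo lets axons cross the midline, at 5.06%, Epha8 at 6.09% and Ephb3, a receptor of B-class ephrins, at 42.9%. The Ephb3 value came from 8 complete rows that all lay upstream, at positions -700 to -436 from the start, with row means from 8.63% to 87.1%. From position 127 after the start onward the 23 further rows, which lacked some mice, had means between 0% and 8.68%. Ephb3's start was at 46.3%, 36.9%, 41.9%, 41.7% and 41.4% in the standard mice, at 43.4%, 45.2%, 34.5%, 48.8% and 49.9% in the enriched mice, and at 45.1%, 36.8%, 38.5%, 43.6% and 49.0% in the withdrawal mice, so the 3 groups overlapped fully.

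Of the 7 genes without 3 complete rows, 3 were near 0 or near 100 in every group over the rows with fewer mice. Neo1, the neogenin receptor related to Dcc, averaged 0.876% over 27 rows, Ntn3 1.59% over 25 rows and Epha1 96.1% over 5 rows. Srgap2, whose 57 rows include 29 that lie in the neighbouring gene Fam72a, averaged 9.61%. Efna4 averaged 23.8% over 3 rows, Robo4 44.2% over 2 rows and Efna2 45.9% over 11 rows. These 7 genes were not tested as whole genes. Their tested CpGs, 2 in Efna2, 2 in Ntn3 and 1 in Srgap2, are among the 506 described next. Both Efna2 CpGs were lower in the enriched than in the standard mice at an unadjusted p under 0.05, as were 2.45% of all tested CpGs.

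No member CpG, window, gene start or gene passed the test in any of the 3 comparisons between groups. The tests used limma on a log2 ratio of methylated to unmethylated percent, with p-values adjusted over every feature in the table by the Benjamini-Hochberg method, and an adjusted p under 0.05 as the threshold. With enrichment against standard housing 0 of 506 member CpGs, 0 of 88 member 1 kb windows and 0 of 10 member starts were called, and so was 0% of each kind over the whole table. Among genes 0 of 35 members were called, against 1 gene of 8349 over the whole table (0.012%). With withdrawal against standard housing, and with withdrawal against enrichment, no member and no other feature was called, which is 0% for each of the 4 kinds. An unadjusted p under 0.05 was met by 26 member CpGs in enriched against standard (5.14%, against 5.15% of all tested CpGs), by 20 in withdrawal against standard (3.95% against 4.42%) and by 29 in withdrawal against enriched (5.73% against 4.3%). These shares are close to those of all CpGs.

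Taken by direction, the CpGs with an unadjusted p under 0.05 did not split evenly in the members. In enriched against standard 19 were lower and 7 higher in the enriched mice, which is 3.75% and 1.38% of member CpGs, against 2.45% and 2.7% of all CpGs. In withdrawal against enriched 19 were higher and 10 lower in the withdrawal mice, which is 3.75% and 1.98% of member CpGs, against 2.32% and 1.98% of all CpGs. Withdrawal against standard had 10 in each direction (1.98% of member CpGs), against 2.47% of all CpGs higher and 1.95% lower. The 2 comparisons with the standard mice share those mice, and the 2 with the enriched mice share those. Among windows the counts at an unadjusted p under 0.05 were 7, 3 and 1 of 88 in enriched against standard, withdrawal against standard and withdrawal against enriched, where the background shares were 5.71%, 4.8% and 4.39%. Among genes they were 3, 1 and 2 of 35, where the background shares were 6.04%, 5.34% and 4.84%. Of the 10 gene starts 0 met it in any comparison, where the background shares were 5.14%, 5.01% and 5.07%.

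At the level of whole genes the differences were small in both directions. In enriched against standard 18 of 35 genes were higher and 17 lower in the enriched mice, with a median difference of 0.068 percentage points against 0.0554 over all genes. In withdrawal against standard 18 were higher and 17 lower, with medians of 0.180 and 0.293 points. In withdrawal against enriched 19 were higher and 16 lower, with medians of 0.323 and 0.211 points. The widest gene differences in enriched against standard were 6.79 points in Efna1 and -5.93 points in Slit2.

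**Figure D3:**
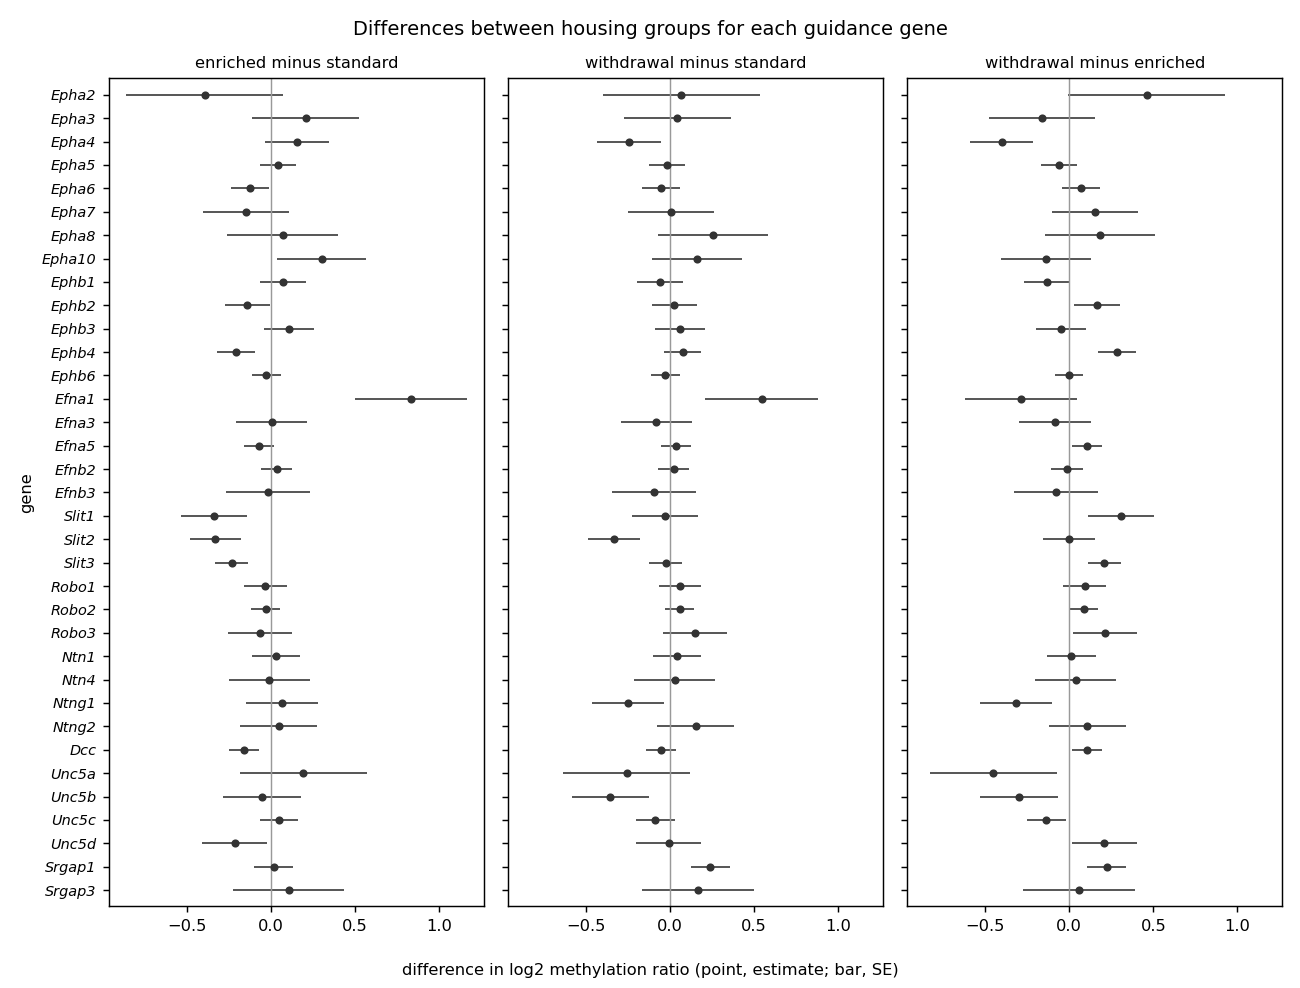
Difference between housing groups of each guidance gene on the log2 methylation ratio (x axis; point, estimate; bar, standard error) in the 3 comparisons, 5 mice per group. No gene passed the adjusted threshold, and the largest estimate is that of Efna1 in enriched minus standard (0.83).

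Among the Slit ligands, the secreted repellents, all 3 genes had lower means in the enriched mice than in the standard mice, though none passed the test. The Slit mean was 32.1% ± 2.81 (SD, n = 5) in the standard mice, 27.3% ± 1.63 in the enriched mice and 29.8% ± 2.36 in the withdrawal mice. The standard and enriched ranges, 28.5% to 35.4% and 25.8% to 29.95%, overlapped. Slit1 differed by -4.27 points, Slit2 by -5.93 and Slit3 by -4.07 between enriched and standard. With every row that had at least 3 mice per group, these differences were 0.875, -1.47 and -2.04 points, so the Slit1 sign and most of the size depended on which rows were counted.

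Slit2 held the member window with the smallest p against standard housing. At 36.1%, 42.5%, 32.5%, 39.8% and 44.8% in the standard mice, Slit2 as a whole gene was at 33.7%, 34.5%, 32.7%, 29.3% and 35.7% in the enriched mice and at 35.4%, 34.96%, 35.7%, 35.4% and 24.9% in the withdrawal mice. All standard mice but mouse 3 were above every enriched and withdrawal mouse. The differences on the log2 ratio were -0.33 (SE 0.153, adjusted p = 0.821) for enriched against standard and -0.33 (SE 0.153, adjusted p = 0.932) for withdrawal against standard, and with at least 3 mice per group the withdrawal minus standard difference turned to 1.15 points. The 1 kb window starting at position 47983001 of chromosome 5, 1.71 kb after the gene's start, had 32 rows of which 4 were complete. It was at 13.2%, 11.3%, 0%, 11.5% and 10.3% in the standard mice, at 0%, 1.39%, 2.34%, 0% and 0% in the enriched mice, and at 0%, 0%, 0%, 3.03% and 0% in the withdrawal mice. Standard mouse 3 was at 0 with the other groups, and the other 4 standard mice lay above every enriched and withdrawal mouse. The window had an adjusted p of 0.653 against enriched and of 0.995 against withdrawal, and without standard mouse 3 those were 0.0105 and 0.00746, the only calls of a member in any alternative. These window results rest on the 4 complete rows. Most rows of the window that lacked some mice averaged 0% in every group, and the rest went both ways. In the standard, enriched and withdrawal mice 47983595 averaged 4.43%, 1.5% and 9.46%. In that order 47983139 averaged 0%, 17.5% and 0%, and 47983811 averaged 8.33%, 0% and 0%.

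Most of the window's difference lay in 1 CpG on the minus strand at position 47983690. Its standard mice were at 52.9%, 14.7%, 0%, 46.2% and 41.4%, its enriched mice at 0%, 0%, 9.38%, 0% and 0%, and its 5 withdrawal mice all at 0%. The CpG 4 bases away on the same strand was at 0 in all 15 mice. No opposite-strand row for this CpG was measured. The withdrawal minus standard difference was -31.0 points (adjusted p = 0.692) and the enriched minus standard difference -29.2 points (adjusted p = 0.646). Without this CpG the enriched minus standard difference of the whole Slit2 gene was -4.00 points. The whole Slit3 gene was at 36.5%, 33.6%, 33.1%, 38.7% and 37.4% in the standard mice, at 31.6%, 31.6%, 29.6%, 35.4% and 30.8% in the enriched mice, and at 33.5%, 33.1%, 37.4%, 37.8% and 35.2% in the withdrawal mice. The enriched mice except mouse 4 were below every standard mouse. The log2 ratio differed by -0.23 (SE 0.0973, adjusted p = 0.802) between enriched and standard.

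Among the Robo receptors, which bind Slits, CpGs of Robo2 and Robo3 had some of the smallest p of the members in comparisons with the withdrawal mice. In Robo3 a CpG at position 37433905 of chromosome 9, -0.469 kb from the start, was at 0 in all 5 standard mice. The enriched mice were at 0%, 0%, 8.22%, 0% and 0%, and the withdrawal mice at 20.8%, 10.3%, 0%, 14.3% and 23.3%. Withdrawal mouse 3 shared the 0 of the standard mice, and the other 4 withdrawal mice exceeded all 10 other mice (adjusted p = 0.766 against standard). Robo2, at position 74645030 of chromosome 16 and 802 kb after the start, was at 15%, 30.6%, 9.52%, 15% and 29.03% in the standard mice. At that CpG the enriched mice were at 0%, 44%, 30%, 17.6% and 15%, and the withdrawal mice at 51.6%, 40.8%, 55.6%, 64.8% and 68.4%. The 5 withdrawal mice lay above every standard mouse, while enriched mouse 2 exceeded withdrawal mouse 2 (adjusted p = 0.961 against standard and 0.976 against enriched). The complete CpG 34 bases away averaged 43.0%, 40.4% and 46.7% in the standard, enriched and withdrawal mice. A CpG 51 bases away on the other strand, with 4 mice per group, averaged 0%, 4.69% and 29.0%. Over the whole gene withdrawal minus standard was 1.06 points in Robo2 and 2.94 points in Robo3. The other Robo2 CpG with a small p, at position 74160846, was at 100% in 4 of 5 withdrawal mice and 84.9% in the other. The enriched mice were there at 78.7% to 85.7% and the standard mice at 73.8% to 98.1%, so the withdrawal mice overlapped both groups. Robo1 held 1 of the 2 member windows with the widest spread within groups among windows of 20 to 80% methylation. The window starting at position 72283001 of chromosome 16 ran from 39.4% to 79.2% in the standard mice, 34.6% to 85.2% in the enriched mice and 54.0% to 90.9% in the withdrawal mice. A second Robo1 window, starting at 72240001, averaged 94.2% ± 2.19 (SD, n = 5) in the standard mice, 88.6% ± 4.35 in the enriched mice and 93.7% ± 4.79 in the withdrawal mice.

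**Figure D4:**
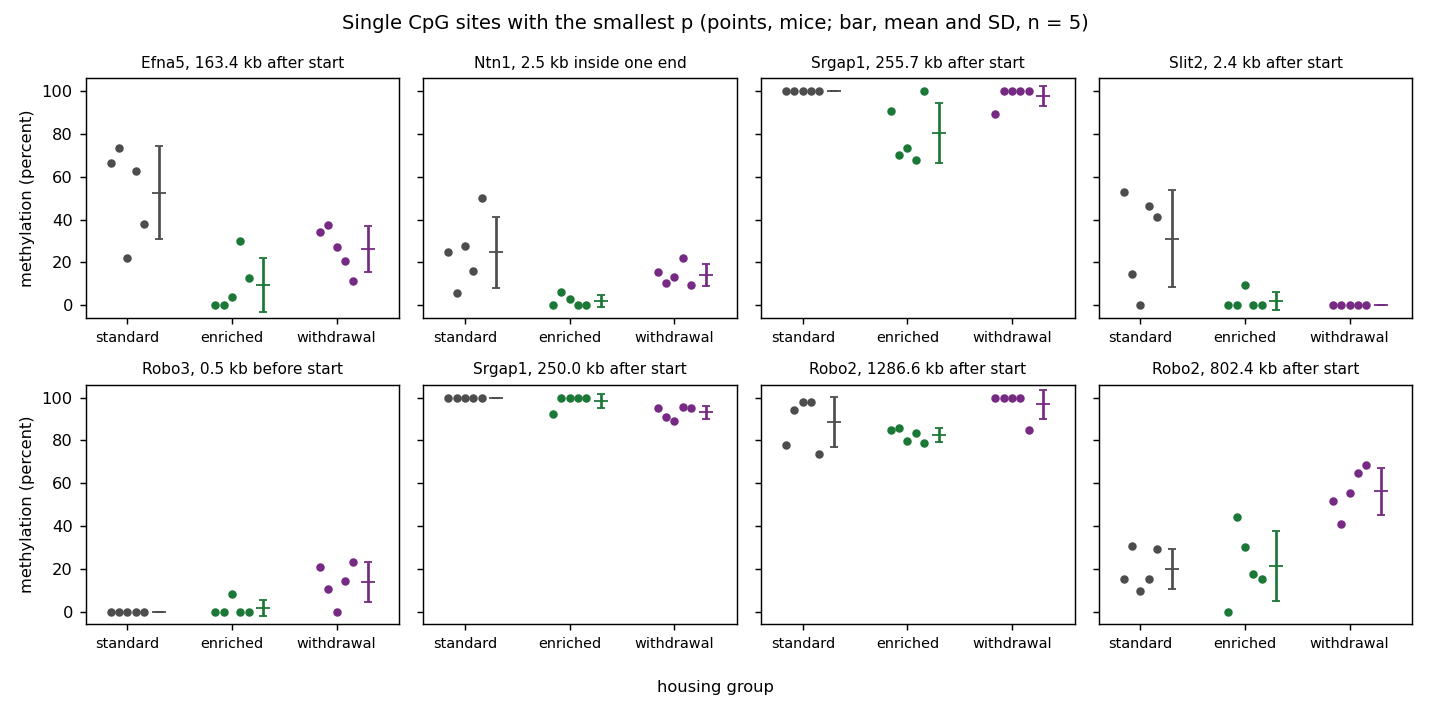
Methylation (y axis, percent) of the 8 member CpGs with the smallest p in a comparison, in each mouse of the 3 housing groups (x axis); the bar beside the points is the mean and SD of 5 mice. No CpG passed the adjusted threshold, and in Slit2 the 5 withdrawal mice sit at 0 with 4 of the enriched mice.

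The Srgap effectors, which bind the Robo tails inside the cell, differed little. Srgap1 averaged 75.5% ± 2.20 (SD, n = 5) in the standard mice, 75.7% ± 3.24 in the enriched mice and 79.0% ± 0.976 in the withdrawal mice. Its withdrawal mice, at 77.7% to 80.2%, overlapped the standard mice at 73.0% to 78.3% and the enriched mice at 70.7% to 78.5%. The difference on the log2 ratio was 0.24 (SE 0.116, adjusted p = 0.947) between withdrawal and standard. A CpG of Srgap1 at position 121797935 of chromosome 10 differed in the other direction, at 100% in all 5 standard mice and at 95.1%, 91.1%, 88.9%, 95.8% and 95.05% in the withdrawal mice, with no overlap (adjusted p = 0.886). The Srgap1 CpG at position 121792196 was at 100% in all standard mice, at 90.9%, 70.4%, 73.3%, 67.7% and 100% in the enriched mice, and at 89.6% in withdrawal mouse 1 with 100% in the other 4. Enriched mice 2, 3 and 4 were lowest, and enriched mouse 5 matched the standard mice (adjusted p = 0.646 against standard).

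Among the ephrins, Efna1 was the member gene with the smallest p in enriched against standard. Its 15 rows all lie in the flank of the gene, and the 4 of them that were complete gave its values. Efna1 therefore had no value in the alternatives with no flank or with at least 5 rows. It was at 10%, 2.73%, 2.88%, 2.73% and 5.30% in the standard mice, at 14.1%, 8.17%, 10%, 21.1% and 4.25% in the enriched mice, and at 10.5%, 12.7%, 12.0%, 4.50% and 3.87% in the withdrawal mice. Standard mouse 1 and enriched mouse 5 brought the 2 groups into overlap, and the log2 ratio differed by 0.83 (SE 0.334, adjusted p = 0.789). Efna5, an ephrin that repels axons in topographic maps, held the CpG with the smallest p, at position 62717894 of chromosome 17 and 163 kb after its start. Its standard mice were at 66.7%, 73.7%, 21.95%, 62.5% and 37.9%, its enriched mice at 0%, 0%, 3.57%, 30% and 12.8%, and its withdrawal mice at 34.2%, 37.5%, 27.3%, 20.7% and 11.1%. Standard mouse 3 lay below enriched mouse 4, so the groups overlapped by 1 mouse each way. The log2 ratio differed by -3.29 (SE 0.752, adjusted p = 0.506) between enriched and standard, and by 1.75 (SE 0.752, adjusted p = 0.976) between withdrawal and enriched. The whole Efna5 gene, over 36 rows, averaged 46.0% ± 3.28 in the standard mice and 44.7% ± 1.58 in the enriched mice (SD, n = 5).

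Of the Eph receptors, Ephb4 had the smallest p of any member gene in withdrawal against enriched. Ephb4 is best known from vessel cells, where it binds Efnb2. It was at 43.0%, 44.8%, 48.9%, 45.6% and 48.8% in the standard mice, at 46.1%, 42.3%, 41.9%, 41.7% and 39.6% in the enriched mice, and at 43.2%, 50.6%, 48.9%, 52.0% and 43.5% in the withdrawal mice. Enriched mouse 1 was above withdrawal mice 1 and 5, and the log2 ratio differed by 0.28 (SE 0.111, adjusted p = 0.975) between withdrawal and enriched. Epha7, a receptor of A-class ephrins, had a window starting at position 28815001 of chromosome 4 with 3 complete rows of 30. Enriched mice 1, 3 and 5 were at 17.5%, 5.80% and 11.1% there, and the other 2 enriched mice at 0%. The standard mice were at 0% to 4.39% and the withdrawal mice at 0% to 1.96%, so 2 enriched mice stood with the standard and withdrawal mice (adjusted p = 0.854 with standard, 0.999 with withdrawal). The start of Epha4, a receptor of both ephrin classes, was at 2.47% ± 2.69 (SD, n = 5) in the standard mice, 3.17% ± 4.38 in the enriched mice and 0.159% ± 0.355 in the withdrawal mice. Epha8 had the widest spread within groups of the member windows of 20 to 80% methylation, in the window starting at position 136954001 of chromosome 4, with enriched mice between 23.5% and 100%, standard mice between 57.3% and 90.02% and withdrawal mice between 74.5% and 83.03%.

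Among the netrins and their receptors, 2 neighbouring CpGs of Ntn1, the best studied attractant, had values at or near 0 in the enriched mice. Of the 21 tested CpGs of Ntn1, 2 were lower and 2 higher in enriched against standard at an unadjusted p under 0.05, and the whole gene averaged 61.1% ± 2.68 (SD, n = 5) in the standard mice and 61.5% ± 5.92 in the enriched mice. The CpG at position 68384341 of chromosome 11 was at 25%, 5.45%, 27.7%, 15.8% and 50% in the standard mice, at 0%, 6.25%, 2.78%, 0% and 0% in the enriched mice, and at 15.5%, 10.5%, 13.2%, 21.8% and 9.33% in the withdrawal mice. All 5 withdrawal mice were above all 5 enriched mice, and standard mouse 2 overlapped the enriched mice (adjusted p = 0.506 between enriched and standard, 0.976 between withdrawal and enriched). The CpG 4 bases further, at 68384345, was at 0% in all 5 enriched mice and at 3.77% to 50% in the standard mice, so these groups did not overlap, and the withdrawal mice were at 0% to 24.7%. Other rows of the same 1 kb window went both ways. The complete CpG at 68384309 averaged 6.62%, 10.9% and 6.98% in the standard, enriched and withdrawal mice, with enriched mouse 5 at 54.5%. Of the rows that lacked some mice, 68384820 averaged 0%, 33.0% and 0%, and 68384658 averaged 26.5%, 0% and 1.67%. In enriched against standard 4 of 506 member CpGs did not overlap, against 0.458% of all tested CpGs. In withdrawal against standard 6 did not (0.532% of all), and in withdrawal against enriched 1 (0.51% of all). Dcc, the attractive netrin receptor, had a window of 3 rows, of its 73 in all, starting at position 71914001 of chromosome 18. The window was at 21.6%, 19.2%, 21.6%, 25.97% and 29.6% in the standard mice, at 13.6%, 5.15%, 19.2%, 7.69% and 16.6% in the enriched mice, and at 15.2%, 18.0%, 5.94%, 13.6% and 13.6% in the withdrawal mice. The standard mice were above all withdrawal mice, and enriched mouse 3 stood level with standard mouse 2. Most of the window's difference lay in 1 CpG at position 71914657, at 39.9%, 13.8% and 13.3% in the standard, enriched and withdrawal mice. The other CpGs of the window were at 14.4%, 12.6% and 12.8%, and at 16.4%, 10.8% and 13.8%. The log2 ratio of the window differed by -0.96 (SE 0.347, adjusted p = 0.807) for enriched against standard and by -0.85 (SE 0.347, adjusted p = 0.995) for withdrawal against standard. Within Unc5b, the start was at 1.46% ± 2.003 (SD, n = 5) in the standard mice and at 0 in all 5 withdrawal mice.

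No gene among the partners and effectors of these receptors passed the test either. Of 40 genes on a list of ephrin, Slit and netrin signalling partners, 39 had rows and 26 could be tested, and 0 passed in any comparison, where 0.012% of all genes passed in enriched against standard and 0% in the others. An unadjusted p under 0.05 was met by 3 of the 26 in enriched against standard and by 1 each in withdrawal against standard and withdrawal against enriched, where the shares over all genes were 6.04%, 5.34% and 4.84%. Cdk5, a kinase that acts downstream of EphA receptors, averaged 4.18% ± 2.06 (SD, n = 5) in the standard mice and 1.11% ± 1.32 in the enriched mice, a difference that turned to 0.0664 points with at least 3 mice per group. Cfl1, which severs actin filaments, averaged 15.7% ± 3.06 and 20.02% ± 2.70 in the standard and withdrawal mice. Chn2, a chimaerin, averaged 27.2% ± 7.46 and 35.7% ± 5.18 in the enriched and withdrawal mice.

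Spread was measured as how far a mouse lay from the average of the remaining mice in its housing group. Over the complete member rows this distance averaged 9.96 points under standard housing, 10.3 points under enrichment and 7.89 points after withdrawal. Over all complete rows it averaged 8.37, 8.32 and 7.16 points. The member rows were also more often of intermediate methylation, with 28.3% of tested member CpGs between 20 and 80% against 22.4% of all, and no test was made of the spread. Over rows between 20 and 80% alone the distances were 19.2, 18.98 and 13.9 points in the members and 17.2, 17.2 and 14.3 points in all, so after withdrawal the members were the lower. Among the cell type markers on the list, the start of Slc1a3 (astrocytes) averaged 1.35%, 1.59% and 1.94% in the standard, enriched and withdrawal mice. In the same order Aldh1l1, also of astrocytes, was at 39.4%, 30.7% and 30.2%. Gad2 (interneurons) was at 5.12%, 3.77% and 8.22%, and Gad1, also of interneurons, at 5.86%, 8.39% and 9.44%. Flt1 (vessel cells) was at 3.20%, 3.91% and 2.59%, and Prox1 (granule neurons) at 2.37%, 1.33% and 1.48%. The astrocyte starts went in opposite directions, and so did the interneuron starts in enriched against standard. Of 29 markers, 6 had a start value and 17 a gene value, and their part in the members' differences was not tested. The mean over all CpG rows complete in the table ran from 45.9% to 48.4% in the 15 mice.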

How the data were processed

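RRBS libraries were made from dentate gyrus DNA of the 15 mice, 5 per housing group, with groups assigned by the samples' housing labels. The authors deposited, for each cytosine on each strand, a percent methylation, and the submitters' processing notes name Trim Galore 0.4.0, cutadapt 1.8.1, Bismark 0.16.1, methylKit 1.5.2 and build mm10 without saying what each did. A coverage minimum is not given in the sources used here, and no read counts accompany the percentages, so the depth per sample is unknown. The labels do not say that each sample is 1 animal. A mouse here means 1 sample, and the p-values set group differences against the spread between these samples.

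The rows before the chromosome column restarts were used as the CpG rows, since 40643 of the 40643 that fall under a RefSeq promoter sequence sit on a CG, and the 2462278 rows after it were not used here. The rows were joined to RefSeq GRCm38 genes with 2 kb on either side, and strand and start came from the RefSeq promoter table, which held 37 of the 42 members. Exons and introns were not used here. Percentages p were turned into log2((p + 5) / (105 - p)). Values were tested with limma 3.58.1 in R 4.3.3 (moderated test with a mean-variance trend, Benjamini-Hochberg adjustment over the whole table) for 100562 complete CpGs with a range of at least 5 points, for 15677 windows of 1 kb and 8349 genes with at least 3 complete rows, and for 3075 gene starts (1 kb on either side). All 3 groups were in each fit.

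In simulated data, with 200 features shifted in the enriched against standard comparison, a shift of 20 points was recovered for 0 CpGs, 0 windows, 183 starts and 155 genes, and a shift of 30 points for 3, 81, 196 and 185. The shifted CpGs, windows and genes were of intermediate methylation. The shifted starts were also drawn from starts of low methylation, since only 186 starts lay between 20 and 80%. Recovery of starts can therefore not be set against that of the other kinds, and smaller shifts were not simulated. Named features were, in each comparison, the 3 CpGs, 2 windows, 2 genes and 1 start with the smallest p among the members, the 3 highest and 3 lowest starts, the 2 windows with the widest spread between mice, and the smallest-p gene of the partner list. Other features named were chosen after their values were seen. The members and lists were chosen with earlier results of these data known. Alternatives covered the offset, trend, range, missing mice, flank, minimum rows, replicate block, 1 mouse left out at a time and, chosen after seeing the data, the start used and the 3 mice with the most missing rows left out.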

Additional observations from a re-analysis of the deposited data

Results flagged for a closer look

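Of 114 groups of 5 mice examined among the values named here, 14 had 1 mouse far from the other 4, where chance flags about 1 in 20 groups (5.7). That rate holds for independent groups. Many of these features were picked for a small p or a wide spread, and some share rows. The 14 can therefore not be read as an excess over 5.7. In 9 of the 14 the other 4 mice had identical values, so that any other value stands apart.

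Single mice stood apart at several Slit and Robo features. At the Slit2 CpG, enriched mouse 3 was at 9.38% and the other 4 at 0%. In the Slit2 window standard mouse 3 was at 0%, with the others between 10.3% and 13.2%, and withdrawal mouse 4 was at 3.03% with the others at 0%. Over the whole Slit2 gene withdrawal mouse 5 was at 24.9%, with the others between 34.96% and 35.7%. At the Robo3 CpG enriched mouse 3 was at 8.22% and the others at 0%. At the Robo2 CpG at position 74160846 withdrawal mouse 5 was at 84.9% and the others at 100%. In the Robo1 window starting at position 72283001 enriched mouse 2 was at 34.6%, with the others between 72.7% and 85.2%.

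The remaining cases were in Srgap1, the netrins and the Eph system. At the Srgap1 CpG at 121792196 withdrawal mouse 1 was at 89.6% and the others at 100%, and at the one at 121797935 enriched mouse 1 was at 92.6% and the others at 100%. In the Ntn1 window enriched mouse 5 was at 18.2%, with the others between 0% and 2.08%, and the mean of the netrin ligands was 60.3% in withdrawal mouse 3, with the others between 68.7% and 70.9%. In the Epha7 window standard mouse 2 was at 4.39% and the others at 0%. At the start of Efnb2 enriched mouse 3 was at 1.66%, and at the start of Epha4 withdrawal mouse 4 was at 0.794%, with the others of the group at 0% in both.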

How the results depend on the processing

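No member passed under any alternative except the Slit2 window without standard mouse 3. Counts over the whole table were 0, apart from 1 gene in enriched against standard, and moved as follows. With an offset of 1 point, 3 CpGs and 1 window were called in enriched against standard, 2 CpGs in withdrawal against standard and 1 in withdrawal against enriched. With no minimum range, 4 CpGs were called in withdrawal against standard and 3 in withdrawal against enriched. Without the 3 mice with most missing rows, 11, 1 and 9 CpGs were called in enriched against standard, withdrawal against standard and withdrawal against enriched. In withdrawal against standard 1 window was called with at least 3 mice per group, 1 start with at least 5 rows and 1 gene with no flank. The 1 gene of enriched against standard became 0 without the mean-variance trend, with at least 3 mice per group, with the replicate block and without those 3 mice. Leaving out 1 mouse at a time gave 0 to 7, 0 to 11 and 0 to 6 CpGs, 0 to 1, 0 to 1 and 0 windows, 0 to 1 starts in each comparison, and 0 to 3, 0 to 3 and 0 to 2 genes in that order of comparisons, of which members were 0 to 1 windows against standard housing and 0 otherwise. With the replicate number as a block 1 gene start was called in withdrawal against enriched. Besides this start and the 1 gene of enriched against standard, the block changed no call. Same-numbered mice of different groups correlated at -0.0146 to 0.0132 and differently numbered ones at -0.0166 to 0.0184. A pairing by number was therefore not seen, though such values cannot exclude one. The mean over member genes, 36.7%, was 30.8% with at least 3 mice per group, 41.4% with no flank, 38.9% with at least 5 rows and 36.6% to 36.7% without 1 mouse. With at least 3 mice per group the withdrawal minus standard difference of Slit2 reversed to 1.15 points and the enriched minus standard difference of Cdk5 to 0.0664. The cause of these moves was not tested. The unknown depth limits every single-CpG value.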
